A study of Mus musculus with 12 samples.

Results

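The 106 genes described here are the potassium channel genes (symbols that begin with *Kcn*) and the voltage-gated sodium channel genes (symbols that begin with *Scn* and a digit) among the 18996 genes of a bulk RNA sequencing table from mouse paraspinal tissue. They were chosen by symbol alone, so the set holds pore-forming subunits as well as the auxiliary proteins that go with them. By role it comprised 10 sodium channel pore subunits, 4 sodium channel beta subunits, 30 voltage-gated potassium pore subunits, 10 modifier potassium subunits that open no channel alone, 14 inward rectifiers, 13 two-pore channels, 8 calcium- or sodium-activated channels and 17 auxiliary potassium channel subunits. Enough reads for a test were present for 68 members, and 38 did not pass the low-count filter.

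Voltage-gated sodium channels carry the rising phase of the action potential, and potassium channels set the resting potential and bring the membrane back to it. A fast-twitch muscle fibre uses one dominant sodium channel, inward rectifiers that hold its resting potential, ATP-sensitive potassium channels that respond to its metabolic state, and delayed or fast potassium currents that repolarize it. Macrophages, fibroblasts, vascular cells, axons and glia each use other members, so the channel transcripts of a bulk tissue mix the repertoires of all cells in it. In such a sample, fewer cells of a type and less RNA per cell cannot be told apart.

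The tissue came from BALB/c mice aged 5 to 7 weeks, with 4 mice in each of 3 groups. No operation mice were not operated on and gave soft tissue from beside the spine. In SHAM mice that soft tissue was cut away while the laminae were left whole, and in Laminectomy mice the laminae and spinous processes were removed as well, down to the dura. Both surgical groups gave a mixture of soft and scar tissue 7 days after surgery. The submitters state that they kept 3 mice per group on RNA integrity and sequencing quality for their own tests without naming them, so all 4 entered here. No batch is given in the labels.

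Each library held between 16803000 and 18077900 counted reads, and levels are given as CPM, read counts scaled to a common library size by the trimmed mean of M values (TMM). Muscle fibre markers (*Acta1*, *Ckm*, *Myh4* and 11 others) summed to between 108909 and 153997 CPM in No operation, 2562 and 10610 in SHAM, and 3564 and 15319 in Laminectomy, and all 14 were lower in both surgical groups. Several mice stood apart from others of their group in some respect. SHAM 1 had the lowest muscle fibre sum, and its markers of new or denervated fibres summed to 51.5 CPM against 1947 to 3095 in the other SHAM mice. Laminectomy 2 and 3 carried neuron markers at 288 and 87.5 CPM, against 43.1 or less in all other mice. Over all tested genes, No operation 1, SHAM 1 and Laminectomy 1 differed most from the rest of their groups, with a chi-square of their counts per gene of 86.1 to 114, 75.7 to 91.3 and 67.8 to 71.9, whereas Laminectomy 2, 3 and 4 differed from each other by 21.1 to 32.0. Laminectomy 1 had the lowest muscle fibre sum of its group, 3564 CPM against 11777 to 15319, and an adipocyte sum of 3.39 CPM against 46.9 to 101. Where leaving out single mice, or Laminectomy 2 and 3 with or without SHAM 1, moved a called fold change of a named member by over 1.5 times or ended its call, that is stated beside it.

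Measured against No operation, 11 members were higher and 27 lower in SHAM, and 17 were higher and 24 lower in Laminectomy (quasi-likelihood test of edgeR, called where the Benjamini-Hochberg adjusted p was under 0.05 and the change exceeded 0.5 on the log2 scale in either direction). Of the 68 members tested, 16.2% were higher and 39.7% lower in SHAM, beside 25.7% and 25.1% of the 14765 genes tested. In Laminectomy 25.0% of them were higher and 35.3% lower, beside 24.2% and 24.4% of all genes tested. The median log2 fold change of the tested members was -0.75 in SHAM and -0.33 in Laminectomy, whereas that of all tested genes was -0.002 and 0.009. Both comparisons share the No operation mice, and in them 9 members were higher in both (13.2% of those tested, beside 20.6% of all genes), 23 lower in both (33.8% beside 21.1%), none passed in opposite directions (3 genes of all did) and 21 passed in neither (30.9% beside 42.2%). Without SHAM 1 and Laminectomy 2 and 3, 11 members were higher and 27 lower in SHAM, and 13 higher and 30 lower in Laminectomy, of 70 members that then passed the filter. Of all genes under that setting, 23.5% were higher and 23.5% lower in SHAM, and 22.6% higher and 23.7% lower in Laminectomy. Without No operation 1 alone, 13 of 70 tested members were higher and 29 lower in SHAM, beside 25.4% and 25% of all genes. In Laminectomy 15 were then higher and 24 lower, beside 23.8% and 23.9% of all genes. Without Laminectomy 1 alone, 19 of 70 tested members were higher and 20 lower in Laminectomy, beside 21.7% and 22.9% of all genes.

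Counts by family were as follows. Sodium beta subunits (3 of 4 tested lower and none higher in SHAM, 2 lower and none higher in Laminectomy) and inward rectifiers (5 of 8 lower in each, 1 higher in SHAM and 2 in Laminectomy) had more lower than higher members, with median log2 fold changes in SHAM of -2.50 and -2.20. The 20 tested voltage-gated potassium pore subunits included 8 lower and 3 higher in SHAM and 7 lower and 2 higher in Laminectomy. Of 11 tested auxiliary potassium channel subunits, 4 were higher, 1 lower and 6 passed in neither direction in SHAM, and 5 were higher, 1 lower and 5 passed in neither direction in Laminectomy. No family was tested as a set, and no difference between families was tested.

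**Figure D1:**
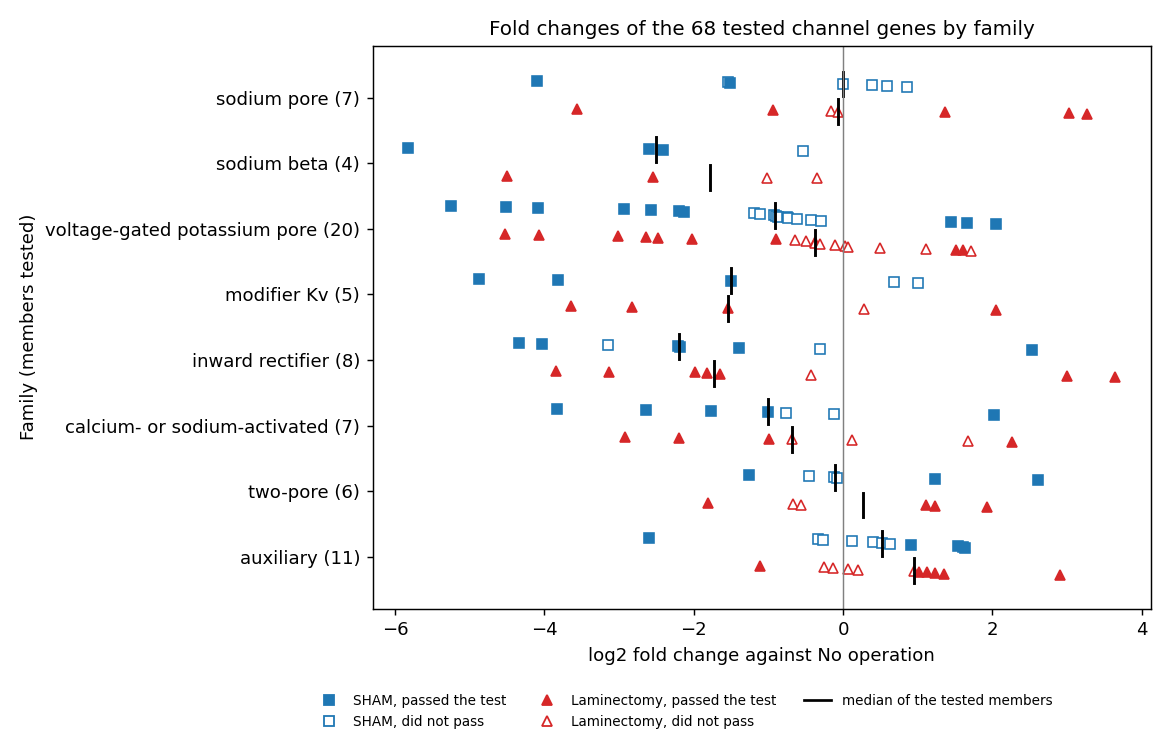
Log2 fold change against No operation (horizontal axis, log2 units) of the 68 tested members, grouped by family (vertical axis) with squares for SHAM and triangles for Laminectomy. Filled symbols passed the test, open symbols did not, and black bars are medians, which lie at -2.50 in SHAM for sodium beta subunits and at 0.52 in SHAM for auxiliary subunits.

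Promoter sequences of 3 members are shown because they stand for the main patterns: *Scn4a* and *Kcnj2*, muscle fibre channels that were lower in both surgical groups, and *Kcnn4*, which was higher in both. Each is the 250 bases before the start of transcription in RefSeq (mouse assembly GRCm38.p6), written 5′ to 3′ on the gene's strand, with CAGCTG, an E-box bound by the myogenic regulators of the MyoD family, in capitals. *Scn4a* lies on the minus strand at chr11:106349391-106349640, *Kcnj2* on the plus strand at chr11:111065914-111066163 and *Kcnn4* on the plus strand at chr7:24370013-24370262. The GENCODE vM21 annotation, used below for levels, starts *Scn4a* further upstream, at 106353288, so by it this window lies within the gene. The windows of *Kcnj2* and *Kcnn4* end directly before their GENCODE starts.
Scn4a: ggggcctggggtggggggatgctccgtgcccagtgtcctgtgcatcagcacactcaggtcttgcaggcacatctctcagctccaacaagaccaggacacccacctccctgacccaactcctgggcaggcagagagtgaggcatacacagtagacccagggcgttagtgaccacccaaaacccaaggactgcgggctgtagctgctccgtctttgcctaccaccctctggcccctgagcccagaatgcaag
Kcnj2: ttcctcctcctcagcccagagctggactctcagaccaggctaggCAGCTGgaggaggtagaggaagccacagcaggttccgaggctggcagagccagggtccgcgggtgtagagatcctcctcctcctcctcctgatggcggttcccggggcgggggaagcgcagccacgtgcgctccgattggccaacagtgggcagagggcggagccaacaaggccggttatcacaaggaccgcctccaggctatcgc
Kcnn4: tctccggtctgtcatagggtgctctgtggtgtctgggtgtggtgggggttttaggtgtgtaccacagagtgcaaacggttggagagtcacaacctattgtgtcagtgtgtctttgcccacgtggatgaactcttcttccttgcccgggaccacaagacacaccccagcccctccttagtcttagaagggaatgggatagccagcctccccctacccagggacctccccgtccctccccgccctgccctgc

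The promoter table held 103 promoters of 76 members, and 3 strings were searched on both strands of each. CAGCTG was present in 21.4% of the members' promoters and in 13% of the 32851 promoters of all genes. Among the 24 promoters of members lower in both surgical groups 4 held it (16.7%), in *Kcng4*, *Kcnj2* and *Kcnn1*, and among the 7 promoters of members higher in both none did. The wider E-box CANNTG, which includes CAGCTG, was in 66% of the members' promoters and 66.2% of all. TAAAAATA, one form of the site bound by MEF2 factors, was in 0.971% of the members' promoters and 2.45% of all. These are matches to letters in a window, and the shares were compared without a test.

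*Scn4a*, the pore subunit of the adult skeletal muscle sodium channel, was the main sodium channel pore subunit of unoperated tissue by level per kilobase of exon. It had 497, 434, 513 and 649 CPM in the 4 No operation mice, 7.98, 34.6, 41.6 and 37.7 in SHAM, and 15.0, 55.3, 57.3 and 49.4 in Laminectomy. The groups did not overlap, and SHAM 1 and Laminectomy 1 were the lowest of their groups. The log2 fold change was -4.10 ± 0.53 (SE) in SHAM (edgeR adjusted p = 6.02e-05) and -3.56 ± 0.52 in Laminectomy (edgeR adjusted p = 0.000159). *Scn2a*, best known from brain neurons, had log2 fold changes of -1.52 ± 0.27 and -0.94 ± 0.26, from 5.60 to 12.5 CPM in No operation to 2.47 to 3.85 in SHAM and 3.02 to 5.45 in Laminectomy.

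*Scn7a*, a sodium channel homologue that responds to sodium concentration rather than voltage, passed in neither comparison. It ranged from 47.5 to 61.3 CPM in No operation, 52.6 to 86.6 in SHAM and 25.0 to 60.9 in Laminectomy, with log2 fold changes of 0.39 ± 0.25 and -0.16 ± 0.25 and overlapping groups. *Scn3a*, the sodium channel of the embryonic brain, stayed between 1.85 and 3.60 CPM in all 12 mice. The pore subunits of pain-sensing neurons, *Scn9a*, *Scn10a* and *Scn11a*, reached at most 0.466 CPM in any mouse and did not pass the filter.

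Beta subunits anchor the sodium channel pore and tune its gating. *Scn4b*, the subunit linked to resurgent sodium current, stood at 293, 361, 388 and 545 CPM in No operation, at 5.0, 4.17, 12.7 and 6.03 in SHAM, and at 0.741, 32.9, 22.4 and 14.3 in Laminectomy. Its fall in SHAM, -5.83 ± 0.85 on the log2 scale (edgeR adjusted p = 0.000133), was the largest of all tested members in that comparison, and in Laminectomy it was -4.49 ± 0.79 (edgeR adjusted p = 0.000564), or -5.71 without Laminectomy 2 and 3. *Scn2b* fell by 2.41 ± 0.55 in SHAM (edgeR adjusted p = 0.00267) from 3.40 to 7.5 CPM, and its Laminectomy mice, at 0.582, 5.14, 2.95 and 1.30 CPM, overlapped No operation (edgeR adjusted p = 0.11). *Scn3b* passed in neither (log2 fold change -0.54 ± 0.33 and -0.35 ± 0.33).

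**Figure D2:**
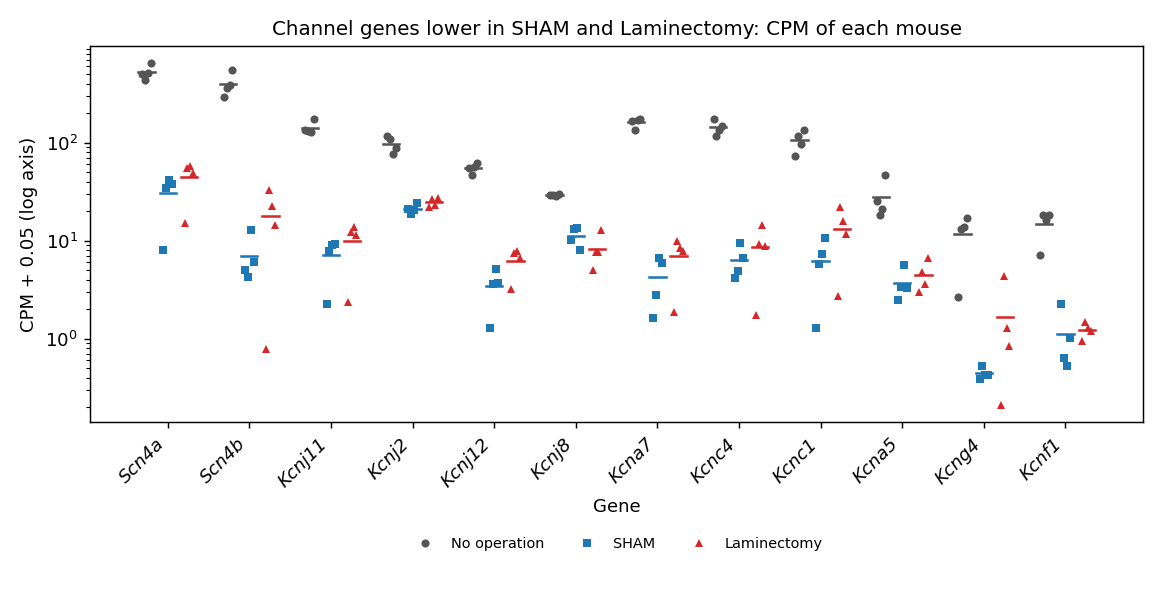
CPM plus 0.05 (vertical log axis) of 12 channel genes (horizontal axis) in every mouse, with circles for No operation, squares for SHAM and triangles for Laminectomy and bars at the group means. *Scn4a* falls from 434 to 649 CPM in No operation to 57.3 CPM or less in every operated mouse, whereas *Kcnj2* and *Kcnj8* fall less.

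Inward rectifiers let potassium into the cell more readily than out and so hold the resting potential. *Kcnj11*, the pore of the ATP-sensitive channel of muscle, had 133, 133, 127 and 173 CPM in No operation, 2.19, 7.76, 8.95 and 9.13 in SHAM, and 2.33, 12.1, 13.6 and 11.4 in Laminectomy, with log2 fold changes of -4.33 ± 0.53 (edgeR adjusted p = 4.22e-05) and -3.84 ± 0.51 (edgeR adjusted p = 9.66e-05). *Kcnj12*, a classical strong inward rectifier, went from 46.7 to 62.0 CPM to 1.24 to 5.03 in SHAM and 3.12 to 7.72 in Laminectomy (log2 fold change -4.03 ± 0.38 and -3.14 ± 0.36). For these genes no operated mouse reached the lowest unoperated one.

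*Kcnj2*, the strong rectifier that sets the resting potential of muscle and whose mutation causes periodic paralysis, fell less and more evenly. Its values were 118, 108, 76.7 and 88.7 CPM in No operation, 20.9, 18.8, 20.5 and 24.2 in SHAM, and 21.8, 26.7, 22.9 and 27.2 in Laminectomy. Here SHAM 1 lay inside its group and Laminectomy 1 close to its own, and the log2 fold changes were -2.21 ± 0.15 (edgeR adjusted p = 2.11e-06) and -1.99 ± 0.14 (edgeR adjusted p = 4.38e-06). *Kcnj8*, the ATP-sensitive channel pore of vascular smooth muscle and pericytes, had 28.6 to 29.5 CPM in No operation, 7.90 to 13.3 in SHAM and 4.92 to 12.7 in Laminectomy (log2 fold change -1.39 ± 0.25, edgeR adjusted p = 0.000541, and -1.82 ± 0.25, edgeR adjusted p = 0.000122). Beside it, mural cell markers summed to 1255 to 1702 CPM in No operation, 538 to 887 in SHAM and 788 to 1032 in Laminectomy, with 4 of 6 lower in SHAM, 2 lower in Laminectomy and 1 higher in each, and their part was not tested. That list holds *Abcc9*, the regulatory subunit of ATP-sensitive channels, which striated muscle also expresses. Its other 5 genes summed to 969 to 1322 CPM in No operation, 497 to 813 in SHAM and 754 to 961 in Laminectomy, with 3 lower in SHAM, 1 lower in Laminectomy and 1 higher in each.

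Voltage-gated potassium channels repolarize the membrane after an action potential. *Kcna7*, a subunit found mainly in striated muscle, had 167, 135, 169 and 173 CPM in No operation, 1.57, 2.73, 6.57 and 5.93 in SHAM, and 1.80, 9.92, 8.34 and 7.82 in Laminectomy. Its log2 fold change in Laminectomy, -4.53 ± 0.51 (edgeR adjusted p = 3.59e-05), was the largest fall of a tested member there, and in SHAM it was -5.26 ± 0.54 (edgeR adjusted p = 1.52e-05). *Kcnc4*, a fast-inactivating subunit of muscle, fell from 117 to 173 CPM to 4.10 to 9.32 in SHAM and 1.69 to 14.3 in Laminectomy (log2 fold change -4.52 ± 0.51 and -4.08 ± 0.49, the latter -4.78 without Laminectomy 2 and 3). *Kcnc1*, its fast delayed rectifier relative, fell from 73.1 to 134 CPM to 1.24 to 10.6 and 2.65 to 22.1 (log2 fold change -4.08 ± 0.65 and -3.02 ± 0.61, the latter -3.87 without Laminectomy 2 and 3). None of these genes overlapped between No operation and either surgical group.

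Smaller falls were measured for delayed rectifiers that many tissues share. The log2 fold changes in SHAM and Laminectomy were -2.93 ± 0.38 and -2.64 ± 0.37 for *Kcna5*, and -2.19 ± 0.37 and -2.02 ± 0.36 for *Kcnq5*, both without overlap.

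Modifier subunits form channels only together with a pore subunit of another gene. *Kcnf1* fell from 7.17 to 18.2 CPM to 0.477 to 2.19 in SHAM and 0.90 to 1.44 in Laminectomy, log2 fold changes of -3.81 ± 0.47 and -3.64 ± 0.46, and without SHAM 1, its highest SHAM mouse, the SHAM value was -4.45. *Kcng4* went from 2.62, 13.2, 13.7 and 17 CPM to 0.337 to 0.481 in SHAM and to 0.159, 4.32, 1.24 and 0.782 in Laminectomy. SHAM lay below all No operation mice, whereas Laminectomy 2 lay above No operation 1. The log2 fold change of *Kcng4* was -4.87 ± 0.87 in SHAM and -2.83 ± 0.76 in Laminectomy, where it was -3.98 without Laminectomy 2 and -4.60 without Laminectomy 2 and 3. *Kcns1*, in contrast, was higher in Laminectomy by 2.05 ± 0.56 (edgeR adjusted p = 0.00849), with 4.02, 2.57, 3.42 and 1.62 CPM against 1.10, 1.13, 0.333 and 0.210 in No operation, while SHAM at 0.618 to 2.41 CPM did not pass (edgeR adjusted p = 0.142).

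Among calcium-activated channels, the small-conductance subunits *Kcnn1* and *Kcnn2* fell and the intermediate-conductance *Kcnn4* rose. *Kcnn1* went from 14.7 to 23.3 CPM to 2.40 to 3.37 in SHAM and 3.52 to 4.63 in Laminectomy (log2 fold change -2.64 ± 0.18 and -2.20 ± 0.18). *Kcnn2* went from 1.93 to 5.12 CPM to at most 0.371 and 0.977 (log2 fold change -3.83 ± 0.80 and -2.92 ± 0.74, the latter -3.77 without Laminectomy 2 and -5.73 without Laminectomy 2 and 3), and exons of both genes overlap genes on the other strand. *Kcnn3*, the small-conductance subunit known to appear in denervated muscle, had 7.65, 3.34, 3.60 and 5.61 CPM in No operation, 1.57, 4.65, 5.98 and 6.30 in SHAM, and 2.96, 5.96, 7.20 and 5.89 in Laminectomy. Its lowest value was that of SHAM 1, and neither log2 fold change, -0.12 ± 0.43 and 0.13 ± 0.42, passed. The markers of new or denervated fibres summed to 205 to 657 CPM in No operation, to 1969 to 3141 in Laminectomy and to the SHAM values above, and 8 of 11 were higher in SHAM and 9 in Laminectomy.

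*Kcnma1*, the large-conductance channel of smooth muscle and many other cells, fell by 1.77 ± 0.26 in SHAM (edgeR adjusted p = 0.000159) and by 0.99 ± 0.26 in Laminectomy (edgeR adjusted p = 0.00604). It had 75.9, 80.2, 130 and 75.4 CPM in No operation, 14.2, 28.2, 32.9 and 30.9 in SHAM, and 37.3, 52.5, 41.3 and 50.3 in Laminectomy, so that the 3 groups did not overlap at all. Its smooth muscle partner *Kcnmb1* stayed between 0.504 and 1.54 CPM in all mice. Exons of *Kcnma1*, like those of *Kcnq5* and *Kcnk1*, overlap a gene on the other strand. Smooth muscle markers summed to 302 to 552 CPM in No operation, 470 to 872 in SHAM and 609 to 934 in Laminectomy, with 1 of 6 higher and 2 lower in SHAM and 2 higher and 2 lower in Laminectomy.

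The falls were also set beside the muscle fibre genes of the same mouse, as a description. On the scale of log2(CPM + 0.5), the mean of the 14 muscle fibre genes was 4.26 lower in SHAM and 3.63 lower in Laminectomy than in No operation, and each channel's own level was expressed relative to it. *Scn4a* kept its distance to the muscle fibre genes, with differences from No operation of -0.04 in SHAM and -0.08 in Laminectomy, and so nearly did *Kcnj11* (-0.13 and -0.38) and *Kcnc1* (0.04 and 0.38). *Scn4b* fell further than the muscle fibre genes (-1.55 and -1.52), as did *Kcna7* (-1.003 and -1.005), and for both every operated mouse lay below all No operation mice on this relative scale. *Kcna5* (1.54 and 1.15), *Kcnj2* (2.09 and 1.67) and *Kcnma1* (2.49 and 2.67) fell less than those genes did. This scale compares transcripts within a mouse and does not give a level per fibre.

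**Figure D3:**
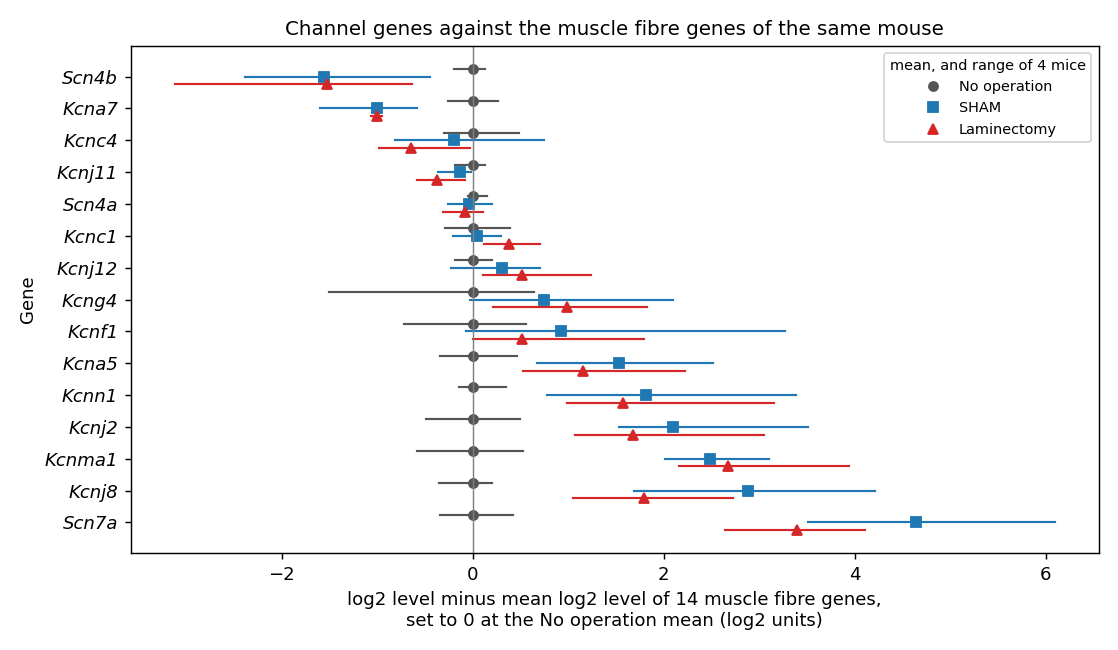
Log2(CPM + 0.5) of 15 channel genes (vertical axis) minus the mean of the 14 muscle fibre genes in the same mouse, set to 0 at the No operation mean (horizontal axis, log2 units), with symbols at group means and lines over the range of 4 mice. *Scn4a* stays near 0 in both surgical groups, *Scn4b* and *Kcna7* lie to the left, and *Kcnj2* and *Scn7a* lie to the right.

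Several of the members that rose are channels best known from immune, stromal or epithelial cells. *Kcnn4*, the calcium-activated channel of red cells, lymphocytes, macrophages and fibroblasts, had 6.27, 12.5, 6.53 and 2.66 CPM in No operation, 29.1, 32.8, 16.2 and 36.2 in SHAM, and 57.2, 26.2, 25.9 and 25.1 in Laminectomy. The operated mice all lay above the unoperated ones, and the log2 fold change was 2.03 ± 0.44 in SHAM (edgeR adjusted p = 0.00194) and 2.26 ± 0.44 in Laminectomy (edgeR adjusted p = 0.0011). *Kcnk13*, a two-pore channel of microglia and macrophages, had 8.48, 2.58, 3.06 and 1.26 CPM in No operation, 36.8, 19.2, 17.2 and 20.6 in SHAM, and 19.7, 14, 11.4 and 13.3 in Laminectomy. It rose by 2.61 ± 0.48 and 1.93 ± 0.47 on the log2 scale (edgeR adjusted p = 0.000661 and 0.00438), and without No operation 1 the values were 3.34 and 2.66.

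*Kcnk6*, a two-pore channel through which macrophages lose potassium, gave the tightest values of the members that rose. It had 20.1, 18.1, 15.7 and 14.2 CPM in No operation, 47.1, 38.3, 39.8 and 35.5 in SHAM, and 36.6, 39.0, 35.2 and 36.3 in Laminectomy, a log2 fold change of 1.24 ± 0.12 (edgeR adjusted p = 1.22e-05) and 1.11 ± 0.12 (edgeR adjusted p = 2.79e-05). *Kcnj15*, an inward rectifier of epithelia, had 13.4, 2.08, 2.26 and 1.12 CPM in No operation, 17.1, 26.2, 33.3 and 32.5 in SHAM, and 32.8, 42.6, 29.6 and 45.9 in Laminectomy. It rose by 2.54 ± 0.61 and 3.00 ± 0.62 (edgeR adjusted p = 0.00387 and 0.0016), and by 3.89 and 4.36 when No operation 1 was left out, and its exons overlap a gene on the other strand. *Kcnd1*, a subunit of transient potassium current, went from 1.82 to 3.86 CPM to 7.78 to 17.6 in SHAM and 6.53 to 10.6 in Laminectomy (log2 fold change 2.04 ± 0.30 and 1.61 ± 0.29).

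Some auxiliary subunits rose as well. *Kcnab2*, a cytoplasmic beta subunit that binds NADPH, had 7.43 to 28.5 CPM in No operation, 37.5 to 68.7 in SHAM and 27.3 to 59.5 in Laminectomy, with log2 fold changes of 1.54 ± 0.36 and 1.36 ± 0.36. *Kcnab3*, a further beta subunit, rose by 1.602 ± 0.43 in SHAM (edgeR adjusted p = 0.00701) and by 2.90 ± 0.43 in Laminectomy (edgeR adjusted p = 0.000178), where Laminectomy 2 was highest at 5.55 CPM and the other 3 mice had 1.72 to 2.64 CPM. Without Laminectomy 2 and 3 the Laminectomy value was 2.17 (edgeR adjusted p = 0.0011), and an antisense gene overlaps its exons. *Kcnab1*, the third beta subunit, fell instead, with a log2 fold change of -2.59 ± 0.47 in SHAM (edgeR adjusted p = 0.00064). Its call in Laminectomy (log2 fold change -1.12 ± 0.45, edgeR adjusted p = 0.0474) was lost when any one of 10 mice was left out (edgeR adjusted p up to 0.149, without No operation 4). Without Laminectomy 2 and 3 together the fall was larger and passed (log2 fold change -1.81, edgeR adjusted p = 0.0134), and a gene on the other strand overlaps its exons.

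*Kcne4*, a single-span subunit that inhibits several potassium channels, had 14.3, 12.3, 13.7 and 8.48 CPM in No operation, 52.7, 38.0, 45.5 and 15.2 in SHAM, and 9.48, 34.5, 18.8 and 31.2 in Laminectomy. It rose in SHAM by 1.63 ± 0.43 (edgeR adjusted p = 0.00608), while Laminectomy overlapped No operation (edgeR adjusted p = 0.0725). In Laminectomy, *Kcne3*, a subunit that partners *Kcnc4* in muscle, rose by 1.12 ± 0.27 (edgeR adjusted p = 0.00414), and *Kcnip3*, a calcium sensor that also acts as a transcriptional repressor, by 1.02 ± 0.28 (edgeR adjusted p = 0.00789). For neither did SHAM pass (edgeR adjusted p = 0.0649 and 0.121). *Kcnh1* rose in SHAM by 1.44 ± 0.48 (edgeR adjusted p = 0.0213), a call lost without No operation 3, No operation 4 or SHAM 3 (edgeR adjusted p = 0.0514, 0.0619 and 0.0808).

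**Figure D4:**
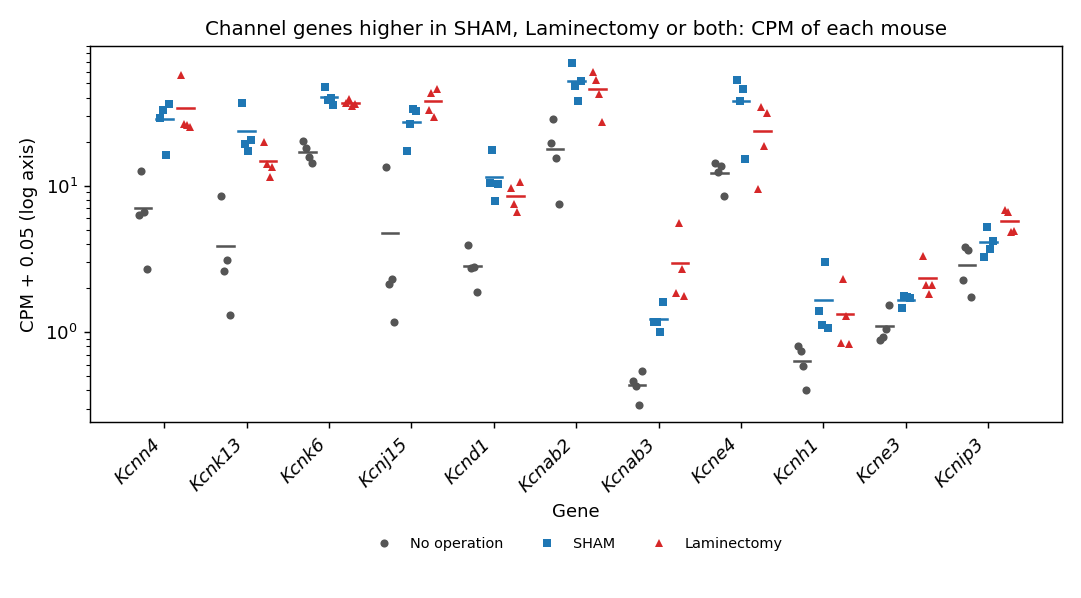
CPM plus 0.05 (vertical log axis) of 11 channel genes (horizontal axis) in every mouse, with circles for No operation, squares for SHAM and triangles for Laminectomy and bars at the group means. For *Kcnn4*, *Kcnk13*, *Kcnk6*, *Kcnj15* and *Kcnd1* every operated mouse lies above every No operation mouse, and for *Kcne4* Laminectomy overlaps No operation.

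Markers of macrophages and fibroblasts moved with these genes. The 10 macrophage markers summed to 806 to 2179 CPM in No operation, 5400 to 9937 in SHAM and 3869 to 6362 in Laminectomy, and 10 were higher in SHAM and 9 in Laminectomy. The 8 fibroblast markers summed to 8521 to 27811 CPM in No operation, 58520 to 79080 in SHAM and 54612 to 67874 in Laminectomy, with 6 higher and 1 lower in each. The neutrophil markers summed to 20.5 to 2138 CPM in No operation, 695 to 1592 in SHAM and 1364 to 2385 in Laminectomy, with 1 of 7 higher in each. Of the other lists, T and NK cell markers were higher (3 of 4 tested in each surgical group), while adipocyte (4 of 5 in SHAM and 5 in Laminectomy) and endothelial markers (3 of 6 in each) were lower. No operation 1, highest of its group for *Kcnk13* and *Kcnj15*, also had the highest macrophage sum of that group. SHAM 1 and Laminectomy 1 had the highest macrophage sums of theirs, 9937 and 6362 CPM, and were also highest for *Kcnk13*. For *Kcnj15*, however, SHAM 1 was the lowest SHAM mouse at 17.1 CPM, and Laminectomy 1, at 32.8 CPM, lay within a group range of 29.6 to 45.9. The part of these cells in the channel values was not tested.

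Other members had their highest values in Laminectomy 2 and 3. These 2 mice held the highest and next highest value of all 12 for 19 of the 100 members that had more than 3 reads in some mouse, and only 6 of the 19 passed the filter. The same was not counted over all genes, so the number is not read as particular to channel genes. For some of the 19 the other Laminectomy mice were high too, as for *Kcnab3*, given above. *Kcnj10*, the inward rectifier of astrocytes and other glia, had 0.138, 2.90, 1.07 and 0.350 CPM in No operation, 1.35, 0.695, 0.847 and 0.747 in SHAM, and 0.90, 43.6, 11.2 and 0.834 in Laminectomy. Laminectomy 1 and 4 were at the level of SHAM. The log2 fold change against No operation, 3.64 ± 1.21 (edgeR adjusted p = 0.0217), was 1.94 without Laminectomy 2, with an edgeR adjusted p of 0.125, and -0.37 without both Laminectomy 2 and 3 (edgeR adjusted p = 0.752). Without No operation 2, the highest unoperated mouse, it was 4.74 (edgeR adjusted p = 0.0148), and the call was lost without No operation 1, 3 or 4 at 3.28, 3.62 and 3.35 (edgeR adjusted p = 0.0508, 0.0525 and 0.0575).

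*Scn8a*, the sodium channel of axonal nodes of Ranvier, had 0.371, 11.1, 3.47 and 0.678 CPM in Laminectomy 1 to 4 and at most 0.909 CPM elsewhere. Its log2 fold change of 3.26 ± 0.94 (edgeR adjusted p = 0.0106) was 1.90 without Laminectomy 2 (edgeR adjusted p = 0.0459) and 0.39 without Laminectomy 2 and 3 (edgeR adjusted p = 0.59). *Scn1a*, a sodium channel of central neurons, had 1.75, 10.2, 2.95 and 0.886 CPM in Laminectomy, 0.345, 0.819, 0.40 and 0.350 in No operation, and 0.0562, 0.374, 0.106 and 0.107 in SHAM. In this gene all Laminectomy mice lay above all others, with a log2 fold change against No operation of 3.02 ± 0.75 (edgeR adjusted p = 0.00489), which was 1.94 without Laminectomy 2 (edgeR adjusted p = 0.0143) and 1.44 without Laminectomy 2 and 3 (edgeR adjusted p = 0.0723). Some of its deposited values were not whole numbers, as were some of *Scn2a*, *Scn3a* and *Kcnk2*.

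Members that did not pass the filter showed the same mice. *Kcnk9*, a two-pore channel of neurons picked out after its values were seen, had 6.32 and 1.30 CPM in these mice and no read in any other mouse. *Kcnj16*, the partner of *Kcnj10*, had 2.78 and 0.984 CPM there and at most 0.214 CPM elsewhere.

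Neural marker genes were high in the same mice. All 9 neuron markers were highest in Laminectomy 2, and 6 of them lay in Laminectomy 3 above all the remaining mice. *Snap25*, *Nefl* and *Nefm*, 3 of these 6, had 63.1, 63.8 and 65.0 CPM in Laminectomy 2 and 23.7, 10.4 and 7.46 in Laminectomy 3, against at most 0.582 CPM in any other mouse. *Stmn2*, *Tubb3* and *Eno2*, at 6.16, 10.2 and 21.5 CPM in Laminectomy 3, stayed within the range of the other mice there, which reached 13.3, 13.1 and 29.6 CPM. The 8 central glia markers summed to 178 and 58.5 CPM in these mice and to between 1.23 and 2.38 CPM in the other 6 operated mice. Among them *Mobp*, of myelinating oligodendrocytes, had 22.9 and 5.39 CPM and at most 0.0666 CPM elsewhere, and *Slc1a2*, an astrocyte glutamate transporter, 61.0 and 22.3 CPM and at most 0.899 CPM elsewhere. In No operation the glia sum of 38.7 to 106 CPM came almost wholly from *Aqp4*, which fast muscle fibres also express. The Schwann cell list, which shares myelin genes with central glia, summed to 914 CPM in Laminectomy 2, 119 to 537 CPM in other operated mice and 291 to 425 CPM in No operation. The part of neural tissue in the channel values was not tested.

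**Figure D5:**
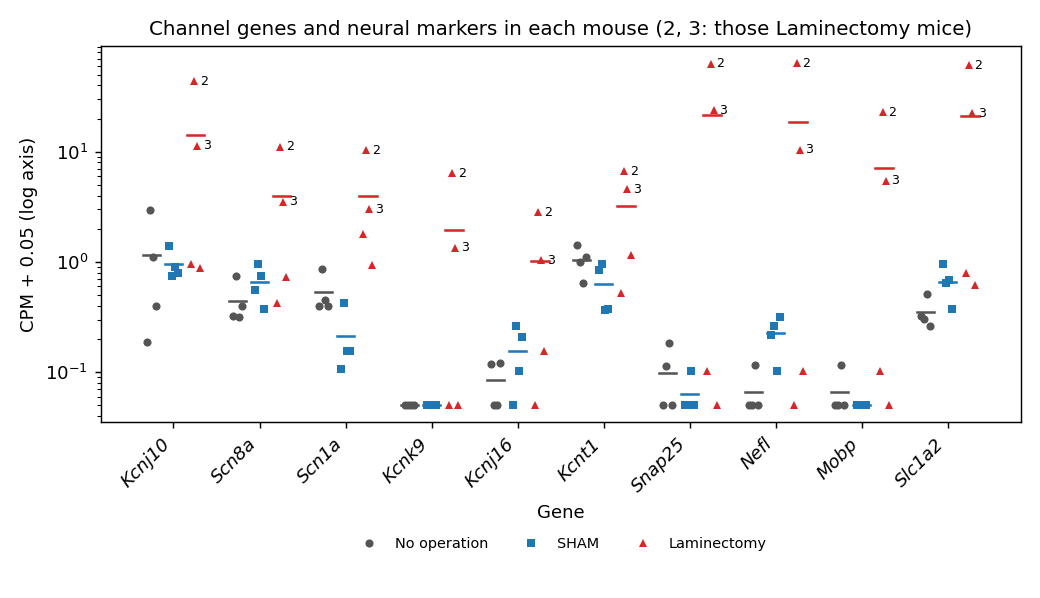
CPM plus 0.05 (vertical log axis) of 6 channel genes, 2 neuron markers (*Snap25*, *Nefl*) and 2 glia markers (*Mobp*, *Slc1a2*) along the horizontal axis in every mouse, with circles for No operation, squares for SHAM, triangles for Laminectomy and bars at the group means. Triangles numbered 2 and 3 are those Laminectomy mice, which hold the highest values of *Kcnj10* (43.6 and 11.2 CPM) as well as of all 4 markers.

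The axonal subunits *Kcna1* and *Kcna2*, which sit beside nodes of Ranvier, followed another order of mice. *Kcna1* had 9.72 to 18.8 CPM in No operation, 13.5, 2.51, 7.52 and 1.17 in SHAM, and 0.529, 25.7, 7.82 and 2.40 in Laminectomy, and *Kcna2* was likewise highest in SHAM 1 (13.5 CPM) among SHAM mice and in Laminectomy 2 (17.4 CPM) among Laminectomy mice. Neither gene passed in any comparison.

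Laminectomy was then compared with SHAM directly, which asks what lamina excision adds to soft tissue surgery. No member passed, and neither did any of the 14765 genes, so that 0% were called. An unadjusted edgeR p below 0.05 was reached by 16 of the 68 tested members, beside 2359 of the 14765 genes tested (16% of all genes). DESeq2 called 9 of 68 members, beside 601 of the 14735 genes to which it gave an adjusted p. Without Laminectomy 2 and 3, 8 of 70 members and 7.8% of all genes reached an unadjusted p below 0.05, and without SHAM 1 as well, 3 members and 5% of all genes. The DESeq2 calls included *Scn1a*, *Kcnj10*, *Kcnh2*, *Kcnt1* and *Kcnq3* (log2 fold changes of 4.63, 3.97, 1.43, 2.46 and 2.66, DESeq2 adjusted p = 3.5e-05, 0.00895, 0.0261, 0.0262 and 0.0276) and also *Scn8a*, *Kcnk1* and *Kcnab1*.

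The 6 members with the smallest p were all higher in Laminectomy. They were *Scn1a* (log2 fold change 4.55 ± 0.84, edgeR adjusted p = 0.0954), *Kcnq3* (2.62 ± 0.76, edgeR adjusted p = 0.151), *Kcnh2* (1.42 ± 0.41, edgeR adjusted p = 0.151), *Kcnab3* (1.30 ± 0.38, edgeR adjusted p = 0.152), *Kcnt1* (2.43 ± 0.73, edgeR adjusted p = 0.154) and *Kcnj10* (3.95 ± 1.22, edgeR adjusted p = 0.164). Of these, 5 had Laminectomy 2 and 3 as their highest mice of all. Without these mice the log2 fold change was 2.97 for *Scn1a*, 1.87 for *Kcnq3*, 0.57 for *Kcnab3*, 0.43 for *Kcnt1* and -0.066 for *Kcnj10* (edgeR adjusted p = 0.506, 0.675, 0.725, 0.906 and 0.994). The exception was *Kcnh2*, a delayed rectifier best known from the heart, with 10.1, 10.9, 5.96 and 4.69 CPM in Laminectomy and 2.64, 3.37, 3.12 and 2.67 in SHAM, groups that did not overlap. No operation, at 1.65, 7.87, 6.13 and 6.80 CPM, overlapped both. Against it the log2 fold change was -0.93 ± 0.41 in SHAM and 0.49 ± 0.40 in Laminectomy, and neither passed (edgeR adjusted p = 0.0705 and 0.315). Between Laminectomy and SHAM, the log2 fold change of *Kcnh2* was 1.32 without Laminectomy 2 and 3 (edgeR adjusted p = 0.592).

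*Kcnk1*, a weakly rectifying two-pore channel, showed a similar order, with 7.78, 12.7, 5.96 and 4.48 CPM in Laminectomy against 2.45 to 4.46 in No operation and 1.55 to 5.56 in SHAM. It rose against No operation by 1.23 ± 0.43 (edgeR adjusted p = 0.0278), a call lost at 0.89 without Laminectomy 2 and at 0.90 without Laminectomy 2 and 3 (edgeR adjusted p = 0.0969 and 0.155), and at 1.17, 1.24 and 1.12 without No operation 1, 2 or 4 (edgeR adjusted p = 0.0619, 0.0514 and 0.0746). Of the other two-pore channels, *Kcnk3*, an acid-sensitive background channel, fell in Laminectomy by 1.81 ± 0.64 (edgeR adjusted p = 0.0295), a call lost at -1.54 without No operation 4 (edgeR adjusted p = 0.0829) and at -1.46, -1.81 and -1.78 without Laminectomy 1, 3 or 4 (edgeR adjusted p = 0.0520, 0.0602 and 0.0626). Without Laminectomy 2 and 3 together it was -2.65 and passed (edgeR adjusted p = 0.0278). The mechanosensitive *Kcnk2* fell in SHAM by 1.26 ± 0.38 (edgeR adjusted p = 0.0135), a call lost at -1.18 without SHAM 1 and Laminectomy 2 and 3 (edgeR adjusted p = 0.0578), and a gene on the other strand overlaps its exons. Bone and cartilage markers summed to 973 to 2954 CPM in Laminectomy, 17.8 to 298 in SHAM and 8.06 to 844 in No operation, and none of the 7 passed between Laminectomy and SHAM, while 1 was higher in Laminectomy than in No operation. Their part in the channel values was not tested.

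Levels of different members were compared only as CPM per kilobase of exon (GENCODE vM21 annotation of GRCm38). In No operation high levels on this scale were those of *Scn4b* (79.6), *Scn4a* (79.3), *Kcna7* (73.8), *Kcnj11* (45.1) and *Kcnc4* (39.0), all known in muscle. The ranges of *Scn4b*, *Scn4a* and *Kcna7* over mice overlapped, so their order is not resolved. In SHAM high levels were those of *Kcne4* (14.2), *Kcnn4* (14.1), *Kcnab2* (12.5), *Kcnk6* (9.84), *Scn7a* (9.46) and *Kcnk13* (7.54), and in Laminectomy those of *Kcnn4* (16.6), *Kcnab2* (11), *Kcnk6* (9.002) and *Kcne4* (8.84). *Scn4a* was at 4.62 in SHAM and 6.71 in Laminectomy. The summed level of all members was 2325 to 3023 CPM in No operation, 580 to 676 in SHAM and 516 to 954 in Laminectomy.

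Other genes of membrane excitability were read beside the channels. Of 47 listed, 45 were tested, with 24 lower and 8 higher in SHAM and 22 lower and 11 higher in Laminectomy. Those that fell included *Clcn1*, the chloride channel that stabilizes the fibre's resting potential (log2 fold change -4.58 and -4.00), *Cacna1s*, the voltage sensor of excitation-contraction coupling (-3.59 and -2.96), *Ryr1*, the calcium release channel it opens (-3.38 and -2.81), and *Abcc9*, a subunit of ATP-sensitive channels that also stands in the mural cell list (-2.63 and -2.46). Of the acetylcholine receptor subunits, the fetal *Chrng* rose (5.90 and 6.42) and the adult *Chrne* fell (-3.47 and -2.88). SHAM 1 had no read of *Chrng*, whereas SHAM 2, 3 and 4 had 25.4, 21.2 and 27.8 CPM, and without SHAM 1 the SHAM values of *Chrng* and *Chrne* were 6.32 and -3.06. These are levels of separate genes in bulk tissue and do not show which receptors were assembled. *Hvcn1*, the proton channel of phagocytes, rose by 1.32 and 1.25.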

How the data were processed

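The authors prepared stranded poly(A) libraries, aligned paired reads to GRCm38 with STAR 2.6.1b, counted reads per gene with featureCounts 2.0.1 under its default options, and used DESeq2 1.30.1 for differential expression. The deposited table holds unnormalized values that behave as estimated counts, since 10.2% are not whole numbers, and no source used here states the step that gave fractions. Values were therefore rounded, and the planned count test was kept. No strand setting is named besides those defaults, so reads of a gene and of one on the other strand cannot be told apart.

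Genes were filtered with filterByExpr, leaving 14765, scaled by TMM and fitted over all 12 mice with edgeR 4.0.16 in R 4.3.3 (glmQLFit, glmQLFTest), with Benjamini-Hochberg adjustment over all genes tested. The scripts were tested on simulated data. Depth was even, so precision rests on each gene's count and on the spread between mice, both of which enter the standard errors.

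Members, lists and tests were chosen with earlier results of these data known. Members named with values were the 12 called with the largest change per direction and surgical group (mean of at least 1 CPM in the higher group), the 6 with the smallest p between surgical groups, and a list of channels known for muscle, immune, stromal or nerve cells. DESeq2 1.42.0, another scaling, other filters, a higher threshold, fits of both groups alone, a replicate block and the omission of single mice were tried. Some members are not reported here. Replicate numbers were shared between groups, but nothing in the labels ties them to a litter or batch.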

Additional observations from a re-analysis of the deposited data

Results flagged for a closer look

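In 49 named members, the highest and lowest mouse of each group of 4 was compared with the rest by Dixon's gap ratio, and 7 of the 147 groups held a mouse beyond the critical value for that size. Chance alone marks about 1 in 20 groups, near this number. *Kcnn4* had 57.2 CPM in Laminectomy 1, beside 25.1 to 26.2 in the other Laminectomy mice. *Kcnj15* had 13.4 CPM in No operation 1, beside 1.12 to 2.26. *Kcnj11* had 173 CPM in No operation 4, beside 127 to 133. *Kcnma1* had 130 CPM in No operation 3, beside 75.4 to 80.2, and *Kcnk5*, an acid-sensitive two-pore channel, had 6.53 CPM in the same mouse, beside 3.84 to 4.28. *Scn1a* had 0.819 CPM in No operation 2, beside 0.345 to 0.40, and 0.374 CPM in SHAM 2, beside 0.0562 to 0.107.

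*Scn1a* was also the one tested member in which all SHAM mice lay on one side of the No operation mean and all Laminectomy mice on the other. The direct comparison of the surgical groups gave a log2 fold change of 4.55 with an edgeR adjusted p of 0.0954, which did not pass, whereas DESeq2 gave 4.63 with an adjusted p of 3.5e-05. Without Laminectomy 2 and 3, the edgeR value was 2.97 (edgeR adjusted p = 0.506).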

How the results depend on the processing

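Counts of members higher or lower stayed within 1.5 times their value under all settings tried. With single mice left out, 10 to 13 members of 68 to 70 tested were higher and 24 to 29 lower in SHAM, and 14 to 20 higher and 20 to 26 lower in Laminectomy. Of all genes, 23.4% to 26.3% were then higher and 23.3% to 25.3% lower in SHAM. In Laminectomy these shares were 21.7% to 25.1% and 22% to 24.7%. DESeq2 called 9 of 68 members between Laminectomy and SHAM, beside 601 of 14735 genes, where edgeR called 0. The replicate block gave 11 higher and 28 lower of 68 tested in SHAM, 16 and 26 in Laminectomy and 0 between surgical groups. Of all genes it called 25.5% higher and 24.9% lower in SHAM, and 24.2% and 24.3% in Laminectomy. It lowered the log2 fold change of *Scn8a* to 2.64. Same-numbered mice of different groups deviated together in 7 of 12 pairs (correlation over 0.1, range -0.228 to 0.352). Differently numbered mice ranged from -0.454 to 0.346. No operation 1, SHAM 1 and Laminectomy 1 correlated with each other at 0.195, 0.192 and 0.131. These values do not settle whether the numbers pair mice. They were not used as pairs in the main fit because the labels tie them to no litter or batch.

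For 74 fold changes of named members, 1480 alternative values were computed, of which 1428 kept their direction and side of the threshold, 35 lost the call, 5 gained one and 12 changed sign. Values that changed sign lay near 0 apart from *Kcnj10*. Leaving out Laminectomy 2 and 3, a choice made after seeing the data, gave -0.37 for *Kcnj10* against No operation (-0.37 with SHAM 1 also out) and -0.066 against SHAM, and -0.19 for *Kcnn3* in Laminectomy (-0.17 with SHAM 1 also out, when its SHAM value was 0.17). The same omission took *Kcnn2* in Laminectomy from -2.92 to -5.73, *Kcng4* from -2.83 to -4.60, *Scn4b* from -4.49 to -5.71, *Kcnc1* from -3.02 to -3.87, *Kcnc4* from -4.08 to -4.78, *Kcnk3* from -1.81 to -2.65, *Kcnab1* from -1.12 to -1.81 and *Kcnab3* from 2.90 to 2.17. With single mice left out, *Kcnn3* ranged from -0.31 to 0.17 in SHAM and -0.030 to 0.40 in Laminectomy, and *Scn7a* from -0.30 to 0.055 in Laminectomy. The cause was not tested. Without a filter on low counts the call of *Kcnab1* in Laminectomy was lost (edgeR adjusted p = 0.0518), and with both groups fitted alone those of *Kcnab1* and *Kcnj10* were lost (edgeR adjusted p = 0.0870 and 0.0506). At these depths, members below about 1 CPM rest on under 20 reads a mouse.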
